A study of Mus musculus with 21 samples.

Results

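The common lymphoid progenitor (CLP) and the haematopoietic stem cell (HSC) of wild-type mouse bone marrow were compared as the far ends of a sorted path, with 3 libraries of each, 6 of the 21 libraries in the study. These libraries are the ones whose labels give CLP or HSC and wild type. Genes were kept where at least 3 of these 6 libraries reached 1 RPKM (read counts divided by the length of the transcript and by the total mapped in that library), which left 11285 of 11628 genes. At the edge of this filter the third highest of the 6 values was 1.000 RPKM for Gpc3, inside, and 0.999 RPKM for Krt80, outside. A gene under 1 RPKM in all 3 libraries of a population was kept only if all 3 of the other population reached 1 RPKM. For such a gene the filter sets the direction of the difference. CLP were sorted from lineage-negative marrow with low Kit and low Sca1, and the label writes the other marks as IL7+ and Flk2+ (Flk2 is another name of Flt3). HSC were sorted as lineage-negative, Kit+, Sca1+, Flk2-negative and CD150+, and the label adds CD38-neg. In both populations replicates 1 and 2 came from mice aged 12 weeks and replicate 3 from a mouse aged 10 weeks; replicate 2 was male and the others were female. No library in the main comparison carried an engineered allele. The other libraries were 3 of wild-type multipotent progenitor 4 (MPP4; lineage-negative, Kit+, Sca1+, Flk2+), of the same ages and sexes by number, used only to place a change in time, and 4 each of CLP, MPP4 and HSC from mice homozygous for a mutation of Etv6, written h.P214L. Mutant replicates 1 and 2 were aged 12 weeks and replicate 3 was aged 10 weeks, replicate 4 was labelled 10 weeks in CLP and 12 weeks in MPP4 and HSC, and replicate 2 was male and the others were female.

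Stem cells sit at the top of blood formation, divide rarely and are held in the marrow niche by receptors such as Tek. As cells commit to the lymphoid path they take up Flt3 and interleukin 7 signals, start the enzymes that cut and join antigen receptor genes, and later bring in the B-cell factor Ebf1. The common lymphoid progenitor is the marrow population from which B cells mainly arise, with T, natural killer and some dendritic cells also within its reach.

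The promoters of a few genes at each end show what the RefSeq sequence holds just before the start site. The RefSeq table (GRCm38.p6) had a window, 250 bases before to 50 after the start, for 9141 of the 11285 genes. It covered 186 of the 249 genes that were at least 4-fold higher in CLP on the log2(RPKM + 1) scale, and 366 of the 483 that were at least 4-fold lower. Letters were searched on both strands: CAGNTG (the E-box, read by E proteins), TGTGGT (RUNX) and CGGAAG (ETS, the family of Etv6). A gene was counted once if any of its windows held the letters. An E-box was held by 68.8% of the genes higher in CLP, by 55.2% of those lower in CLP and by 47.3% of all genes with a window. TGTGGT was held by 28.5%, 16.7% and 15% of the same sets. CGGAAG was held by 10.8% of the higher and 11.5% of the lower genes, against 37.1% of all genes with a window. Genes had 1.35, 1.32 and 1.27 windows each in the higher, lower and full sets, so slightly more sequence was searched per gene in the changed sets. The windows also differed in base composition: the median was 8 CG pairs in the higher genes, 13 in the lower genes and 21 over all genes, and the part of composition and of window number in these shares was not tested. Other letters searched are given in the same order of sets (higher, lower, all). The core letters of Ebf1, CCCNNGGG, were held by 18.8%, 26.2% and 20.9%. The letters AGATAA, read by Gata factors, were held by 11.3%, 10.9% and 7.65%. The PU.1 letters, GAGGAAG, were held by 22.0%, 22.1% and 16.0%, and the Ikaros letters, TGGGAA, by 30.1%, 33.9% and 26.2%. A match is a run of letters and not a shown binding site.

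The 250 bases before the start of Rag1, Gimap7 and Igll1 are shown because these genes rose in CLP and hold both E-box and RUNX letters, and those of Tie1, Hlf and Pdzk1ip1 because these genes fell and hold an E-box without RUNX letters. They were chosen after the windows were searched, among genes with 1 window that ends at the RefSeq gene's own start. Capitals mark E-box, RUNX and ETS letters. Rag1 (chr2:101649533-101649782, minus strand) held 3 E-box and 2 RUNX matches, with 1 of each overlapping, Gimap7 (chr6:48718371-48718620, plus strand) 1 and 1, and Igll1 (chr16:16863986-16864235, minus strand) 3 and 1. Tie1 (chr4:118489850-118490099, minus strand) held 1 E-box and 1 ETS match, Hlf (chr11:90390918-90391167, minus strand) 1 E-box match, and Pdzk1ip1 (chr4:115088458-115088707, plus strand) held 3 E-box matches.
Rag1: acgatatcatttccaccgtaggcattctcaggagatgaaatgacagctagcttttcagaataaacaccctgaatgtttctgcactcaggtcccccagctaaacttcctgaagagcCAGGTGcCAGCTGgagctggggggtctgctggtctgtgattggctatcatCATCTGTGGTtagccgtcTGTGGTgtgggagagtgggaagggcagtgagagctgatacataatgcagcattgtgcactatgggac
Gimap7: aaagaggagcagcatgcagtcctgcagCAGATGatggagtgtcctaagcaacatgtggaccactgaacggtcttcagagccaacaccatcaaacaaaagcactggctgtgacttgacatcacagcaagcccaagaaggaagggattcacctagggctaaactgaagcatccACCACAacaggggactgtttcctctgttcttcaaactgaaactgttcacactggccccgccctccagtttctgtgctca
Igll1: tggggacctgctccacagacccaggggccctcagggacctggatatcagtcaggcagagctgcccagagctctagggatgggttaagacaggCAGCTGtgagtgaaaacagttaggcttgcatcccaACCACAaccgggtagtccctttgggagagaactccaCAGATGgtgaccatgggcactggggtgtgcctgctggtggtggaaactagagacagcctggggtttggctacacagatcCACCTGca
Tie1: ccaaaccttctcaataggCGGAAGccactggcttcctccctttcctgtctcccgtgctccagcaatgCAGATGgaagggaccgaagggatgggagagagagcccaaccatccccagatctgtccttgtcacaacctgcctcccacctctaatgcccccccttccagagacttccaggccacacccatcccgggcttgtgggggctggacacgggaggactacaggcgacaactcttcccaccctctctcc
Hlf: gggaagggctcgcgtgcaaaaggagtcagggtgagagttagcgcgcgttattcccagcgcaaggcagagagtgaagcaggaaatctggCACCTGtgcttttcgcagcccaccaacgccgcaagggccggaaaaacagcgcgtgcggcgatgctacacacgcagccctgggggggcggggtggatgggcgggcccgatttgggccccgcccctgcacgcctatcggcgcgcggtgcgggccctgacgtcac
Pdzk1ip1: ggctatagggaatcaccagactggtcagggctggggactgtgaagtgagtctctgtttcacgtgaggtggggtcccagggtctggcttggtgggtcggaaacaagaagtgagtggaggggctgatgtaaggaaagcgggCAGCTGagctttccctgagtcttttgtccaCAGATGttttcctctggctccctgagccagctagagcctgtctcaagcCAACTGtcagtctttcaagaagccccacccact

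Libraries of one population were close to each other. Over the 6 libraries the median gene lay at 12.0 to 13.5 RPKM and the upper quartile at 29.6 to 30.3 RPKM. Pearson correlations of log2 values over genes were 0.980 to 0.987 within CLP and 0.969 to 0.981 within HSC, against 0.800 to 0.847 between the populations. A pair of departures bear on the results. HSC replicate 2 held the most RNA of mature blood cells among the 6 libraries: the adult globin gene Hbb-bs stood at 2357 RPKM there, against 63.2 and 83.5 RPKM in HSC replicates 1 and 3, and the neutrophil gene S100a8 at 553 RPKM against 39.4 and 5.67 RPKM. Such RNA was not confined to it: the CLP libraries held Hbb-bs at 517, 568 and 850 RPKM and S100a8 at 142, 102 and 4.49 RPKM, and MPP4 replicate 1 held them at 1480 and 160 RPKM. HSC replicate 3, from the youngest age, had the lowest levels of cell-division genes, with Mki67 at 9.60 RPKM against 19.4 and 20.2 RPKM. In bulk RNA, fewer cells of a type and less RNA per cell cannot be told apart.

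The ends differed widely. At an adjusted p under 0.05 (limma, Benjamini-Hochberg over all genes kept), 5831 genes or 51.7% differed, 2216 higher in CLP (19.6%) and 3615 lower in CLP (32.0%). The median gene differed by -0.099 on the log2 scale, and this shift sets the balance of directions: under median-ratio scaling, which brings the median to -0.0013, the split was 2822 higher and 2982 lower, and under quantile normalization 2884 higher and 2749 lower. The 3 CLP values and the 3 HSC values did not overlap for 6238 genes (55.3%), of which 5488 were also called (48.6% of all genes). At least 4-fold on the log2(RPKM + 1) scale were 249 genes higher in CLP (2.21%) and 483 genes lower in CLP (4.28%), and 730 of these 732 (6.49% of all genes) did not overlap between the populations. The text below gives log2 differences of RPKM + 1, CLP minus HSC, with their standard error, and means of RPKM with the SD over 3 libraries. Counts of called list members are to be set beside the shares over all genes, 19.6% higher and 32.0% lower.

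The largest rise was in Dntt, the template-free polymerase that adds bases at antigen receptor joints. Dntt stood at 1725, 1629 and 1618 RPKM in CLP, against 4.49, 5.06 and 3.01 RPKM in HSC, a difference of 8.34 ± 0.20 (adjusted p = 6.81e-17). The lowest CLP library, at 1618 RPKM, was far above the highest HSC library, at 5.06 RPKM. Ly6d, a surface mark of lymphoid progenitors bound for the B lineage, followed at 646, 1060 and 937 RPKM in CLP, against 0.815, 5.72 and 3.04 RPKM in HSC (7.88 ± 0.54, adjusted p = 2.15e-10). Its HSC values were spread more widely than those of Dntt but remained far below CLP.

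The early lymphoid list held 22 kept genes, of which 19 rose and 1 fell, with a median difference of 3.39. It includes Il7r, a gene of the sorting marks. In 3 members, under 1 RPKM in every HSC library, the filter set the direction. Rag2 and Rag1, the recombinase that cuts antigen receptor genes, were both near 0 in HSC. Rag2 was at 49.5, 60.4 and 53.5 RPKM in CLP, against 0.299, 0.742 and 0.036 RPKM in HSC (5.38 ± 0.22). Rag1 was at 22.2, 23.2 and 18.9 RPKM in CLP, against 0.236, 0.270 and 0.055 RPKM in HSC (4.24 ± 0.35, adjusted p = 3.81e-09). Satb1, a chromatin organiser of lymphoid genes, averaged 81.8 ± 11.1 RPKM in CLP and 2.23 ± 0.87 RPKM in HSC. The receptor gene Notch1 averaged 78.7 ± 9.7 RPKM in CLP and 7.82 ± 2.10 RPKM in HSC, and Ikzf1, which encodes Ikaros, 52.9 ± 0.6 and 14.9 ± 0.5 RPKM in the same order. Cnn3, an actin-binding calponin, rose by 6.36 ± 0.18. Ltb, a lymphotoxin subunit, was the 1 list member that fell: it stood at 5.26, 8.77 and 7.98 RPKM in CLP, against 40.9, 45.5 and 97.7 RPKM in HSC (-2.82 ± 0.27, adjusted p = 2.45e-08). All HSC libraries were higher than all CLP libraries, HSC replicate 3 most of all.

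**Figure D1:**
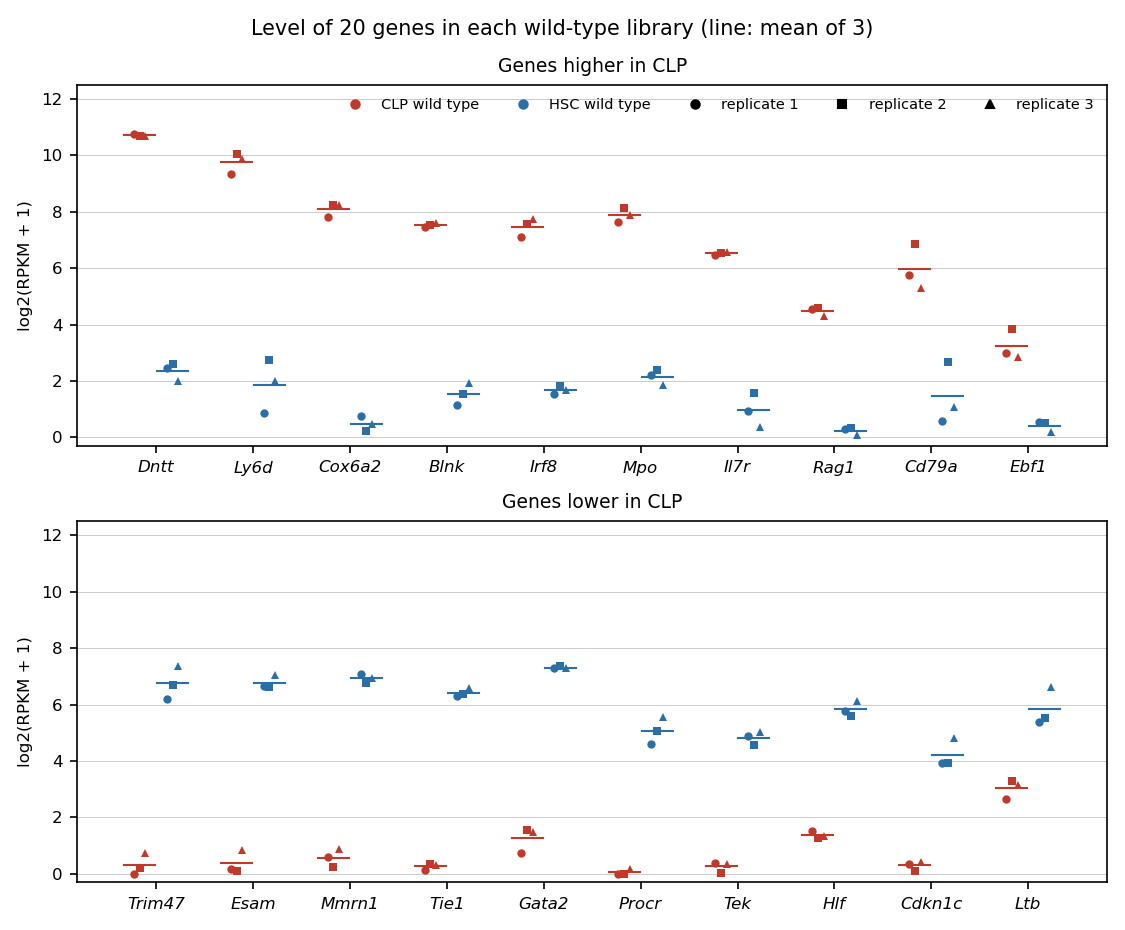
The vertical axis is log2(RPKM + 1), points are the 3 wild-type CLP libraries (left of each gene, red) and the 3 wild-type HSC libraries (right, blue), the symbol gives the replicate and the line the mean. The populations do not overlap in any of the 20 genes, and of these 20 Cd79a and Ebf1 vary most among CLP libraries, with replicate 2 highest.

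Of 22 kept B-lineage genes, 21 rose and none fell, with a median of 1.99. Of the 23 measured members, kept or not, 6 were under 1 RPKM in every HSC library, so they could pass the filter only by being higher in CLP. The adaptor gene Blnk, which links the pre-B-cell receptor to its kinases, was at 173, 183 and 191 RPKM in CLP, against 1.20, 1.94 and 2.85 RPKM in HSC (5.97 ± 0.22). Blk, a tyrosine kinase found in B cells, was at 95.8, 41.0 and 74.4 RPKM in CLP, against 0.137, 0.484 and 0.200 RPKM in HSC (5.74 ± 0.26). These signalling genes were high in each CLP library. The signal chain gene Cd79a was less even, with 52.3, 115 and 38.3 RPKM in CLP, against 0.509, 5.42 and 1.12 RPKM in HSC (4.51 ± 0.57, adjusted p = 1.52e-06). CLP replicate 2 was highest for Cd79a, and again for the B-cell factor Ebf1, at 7.05, 13.5 and 6.14 RPKM in CLP, against 0.448, 0.423 and 0.136 RPKM in HSC (2.83 ± 0.32, adjusted p = 3.64e-07). Surrogate light chain genes shared this order: Vpreb2 was at 49.7, 69.2 and 36.5 RPKM in CLP, against 0.263, 0.839 and 0 RPKM in HSC, and Igll1 at 16.3, 25.1 and 9.11 RPKM in CLP, against 0, 0.826 and 0.568 RPKM in HSC. The coactivator gene Pou2af1 was lower in level, at 7.74 ± 5.04 RPKM in CLP, against 0.527 ± 0.801 RPKM in HSC. Foxo1, a factor that acts with Ebf1, was the member not called, at 8.85, 21.7 and 10.1 RPKM in CLP, against 6.27, 9.95 and 14.3 RPKM in HSC (0.34 ± 0.35, adjusted p = 0.44). HSC replicate 2, the HSC library with the most mature blood cell RNA, was also the highest HSC library for Cd79a; without it 21 of the 22 genes rose.

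The rest of the recombination machinery changed far less than its lymphoid parts. Of 15 genes for V(D)J recombination and end joining, 8 rose, 2 fell and 5 were not called, with a median of 0.52; Dntt, Rag1 and Rag2 were the 3 that rose at least 4-fold. Among the end-joining genes that every cell uses, the kinase gene Prkdc averaged 8.91 ± 1.09 RPKM in CLP and 5.74 ± 1.15 RPKM in HSC (0.56 ± 0.13), while Xrcc5, which encodes Ku80, fell to 16.0 ± 1.4 RPKM in CLP, against 29.4 ± 2.5 RPKM in HSC (-0.84 ± 0.12).

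Genes of other lymphoid and dendritic fates also rose. In the T, natural killer and innate lymphoid list 10 of 14 rose and 3 fell (median 1.51). Of its 15 measured members, kept or not, 6 were under 1 RPKM in every HSC library. The T-cell kinase gene Lck averaged 78.1 ± 5.5 RPKM in CLP and 5.66 ± 0.72 RPKM in HSC (3.57 ± 0.12), Cd7 15 ± 6.1 and 0.270 ± 0.140 RPKM in the same order. The T-lineage factor gene Tcf7 reached only 2.01 ± 0.54 RPKM in CLP, against 0.130 ± 0.083 RPKM in HSC. Gata3, needed for T cells and innate lymphoid cells and also active in stem cells, fell: it was at 1.19, 1.16 and 1.61 RPKM in CLP, against 8.99, 9.93 and 12.6 RPKM in HSC (-2.30 ± 0.18, adjusted p = 1.9e-09). The innate lymphoid factor gene Zbtb16 and Lat, an adaptor of T-cell receptor signals, were the other members that fell, by 1.62 ± 0.20 and 0.59 ± 0.15. Rora, an innate lymphoid factor gene outside the list, fell by 1.59 ± 0.14. Id2, another innate lymphoid factor gene and a member of the list, was called higher in CLP, so such factor genes went both ways.

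In the dendritic cell list 11 of 14 rose and 1 fell (median 1.43). The filter set the direction of 6 of the 14, which were under 1 RPKM in every HSC library. Siglech, a surface lectin of plasmacytoid dendritic cells, was at 52.3, 82.1 and 129 RPKM in CLP, against 0.422, 0.037 and 0.154 RPKM in HSC (6.12 ± 0.34). Cox6a2, a cytochrome oxidase subunit gene also known from those cells, was at 221, 302 and 297 RPKM in CLP, against 0.683, 0.182 and 0.375 RPKM in HSC (7.60 ± 0.23). Irf8, a factor for dendritic and monocyte fates that B cells also use, averaged 178 ± 39 RPKM in CLP and 2.24 ± 0.33 RPKM in HSC (5.77 ± 0.16). The sensor gene Tlr7 and the factor gene Spib rose by 4.10 ± 0.19 and 2.89 ± 0.33. Of 10 MHC class II genes, 3 rose, 1 fell and 6 were not called; with the replicate block on the 6 libraries alone 6 rose, and without CLP replicate 1 none fell. H2-Ob rose by 4.27 ± 0.15, while H2-Aa was at 21.2, 60.2 and 32.8 RPKM in CLP, against 34.1, 46.9 and 39.8 RPKM in HSC (-0.20 ± 0.43, adjusted p = 0.734).

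One granulocyte gene was among the largest rises. Mpo, myeloperoxidase of neutrophil granules, was at 197, 278 and 233 RPKM in CLP, against 3.63, 4.24 and 2.67 RPKM in HSC (5.72 ± 0.82, adjusted p = 7.18e-06), and at 463, 544 and 396 RPKM in MPP4. Late granule genes were not called: S100a8 was at 142, 102 and 4.49 RPKM in CLP, against 39.4, 553 and 5.67 RPKM in HSC (-0.30 ± 1.97), and neither Ltf, Lcn2 nor Ngp passed the test. Another granule protease, Ctsg, rose by 3.28 ± 0.50, and Prtn3 fell to 5.40, 7.99 and 10.3 RPKM in CLP, against 92.0, 98.8 and 158 RPKM in HSC (-3.72 ± 0.27). Over the neutrophil list 2 of 10 rose and 2 fell, and its summed level ranged over 449 to 716 RPKM in CLP and 533 to 2064 RPKM in HSC. Among 15 myeloid factor and receptor genes 8 rose and 3 fell (median 0.65), and without HSC replicate 3, 10 rose and 1 fell. Spi1, which encodes PU.1, averaged 86.3 ± 2.9 RPKM in CLP and 69.6 ± 4.1 RPKM in HSC (0.31 ± 0.09), and the granulocyte factor receptor gene Csf3r fell to 10.8 ± 1.4 RPKM in CLP, against 40.1 ± 13.9 RPKM in HSC (-1.75 ± 0.25).

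Markers of other mature cells were also counted. Over the erythroid list the summed level ranged over 1046 to 1684 RPKM in CLP and 987 to 5154 RPKM in HSC, with 1 of 17 genes up and 8 down. Within the list Hbb-bs was not called (1.43 ± 1.65, adjusted p = 0.491), and Car2, a carbonic anhydrase, was at 27.6, 39.9 and 43.0 RPKM in CLP, against 848, 732 and 742 RPKM in HSC. Summed ranges for monocyte and macrophage genes were 196 to 274 RPKM in CLP and 405 to 641 RPKM in HSC, with 4 of 9 up and 2 down; 1 was down under either scaling, with library weights (2 up), in the 6 libraries alone, and without CLP replicate 1 or 2 or any single HSC library. Mast cell and basophil genes summed to 4.82 to 22.5 RPKM in CLP and 2.98 to 9.62 RPKM in HSC, with 0 of 3 called. Plasma and mature B-cell genes gave 126 to 179 RPKM in CLP and 79.9 to 172 RPKM in HSC, with 1 of 2 up; stromal and endothelial genes gave 104 to 115 RPKM in CLP and 46.0 to 53.7 RPKM in HSC, with 2 of 5 up and 3 down. Over all genes, 5486 were called without HSC replicate 2. The part of such cells in the results was not tested.

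At the stem cell end the genes of surface receptors and niche contact fell. Of 25 kept stem cell surface and niche genes, 25 fell, 23 of them at least 4-fold, with a median of -3.94. Of the 25, 9 were under 1 RPKM in every CLP library and could pass the filter only by being higher in HSC. Esam, an adhesion molecule that marks stem cells, was at 0.134, 0.070 and 0.797 RPKM in CLP, against 99.8, 97.5 and 132 RPKM in HSC (-6.40 ± 0.36). Procr, the protein C receptor, was at 0, 0 and 0.129 RPKM in CLP, against 23.2, 32.4 and 46.3 RPKM in HSC (-5.02 ± 0.24). Tek, the angiopoietin receptor, averaged 0.210 ± 0.157 RPKM in CLP and 27.5 ± 4.6 RPKM in HSC, its relative Tie1 0.214 ± 0.099 and 84.9 ± 8.5 RPKM, and its ligand gene Angpt1 9.63 ± 1.80 and 151 ± 12 RPKM. For each of these genes no CLP library reached the lowest HSC library.

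Of 21 kept stem cell transcription factor genes, 17 fell, 15 of them at least 4-fold, and none rose (median -2.78). The filter set the direction of 7 of the 21, which were under 1 RPKM in every CLP library. Gata2, a zinc-finger factor of stem cells and mast cells, was at 0.663, 1.91 and 1.81 RPKM in CLP, against 156, 164 and 154 RPKM in HSC (-6.06 ± 0.22). Hlf, a leucine-zipper factor that marks stem cells, was at 1.88, 1.44 and 1.54 RPKM in CLP, against 54.2, 46.8 and 69.2 RPKM in HSC (-4.45 ± 0.20). The factor genes Mecom (-4.09 ± 0.26), Tcf15 (-4.50 ± 0.20) and Prdm16 (-2.82 ± 0.23) fell as well. Other factors of the stem cell network were not called: Runx1 averaged 16.5 ± 1.4 RPKM in CLP and 15.5 ± 1.5 RPKM in HSC (0.08 ± 0.12, adjusted p = 0.572), and Lyl1 17.5 ± 1.8 and 18.7 ± 5.0 RPKM (-0.07 ± 0.15, adjusted p = 0.739). Meis1, a Hox cofactor, stayed detectable at 21.3 ± 1.8 RPKM in CLP, against 105 ± 5 RPKM in HSC (-2.25 ± 0.11). In the Hox and cofactor list 8 of 10 fell (median -1.93), among them Hoxb5 with 0.047, 0 and 0.278 RPKM in CLP, against 6, 4.93 and 9.44 RPKM in HSC. Hoxa9 did not pass the test, with 11.3 ± 0.7 RPKM in CLP and 13.2 ± 3.3 RPKM in HSC. Of these 10 genes, 4 were under 1 RPKM in every CLP library.

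Etv6 itself, the repressor mutated elsewhere in the study, was at 66.3, 79.6 and 65.1 RPKM in CLP, against 109, 121 and 109 RPKM in HSC (-0.68 ± 0.09, adjusted p = 1.82e-06). Among 21 ETS and Runx family genes 7 rose and 6 fell (median 0.10), where 19.6% of all genes rose and 32.0% fell. Ets1 rose to 39.6 ± 2.2 RPKM in CLP, against 6.09 ± 0.58 RPKM in HSC (2.52 ± 0.15), and Fli1 fell to 44.7 ± 5.6 RPKM in CLP, against 88.7 ± 5.2 RPKM in HSC (-0.98 ± 0.10). The E protein gene Tcf3, which drives the B-cell program, rose by 0.66 ± 0.09. Over 8 E protein and Id genes 3 rose (Tcf3, Tcf4 and Id2) and 3 fell (Lmo2, Tal1 and Ldb1).

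Megakaryocyte and platelet genes fell with the stem cell genes: 17 of 23 were lower and none higher, with a median of -2.78. The filter set the direction of 9 of the 23, which were under 1 RPKM in every CLP library. The platelet chemokine gene Pf4 was at 1.06, 2.61 and 1.20 RPKM in CLP, against 94.6, 121 and 57.1 RPKM in HSC (-5.11 ± 1.07, adjusted p = 0.000475), and MPP4 replicate 1 held 150 RPKM against 1.99 and 1.10 RPKM in the other MPP4 libraries. Vwf, von Willebrand factor, averaged 0.401 ± 0.184 RPKM in CLP and 23.0 ± 3.1 RPKM in HSC, and the integrin gene Itga2b 0.445 ± 0.321 and 46.3 ± 14.2 RPKM. The erythroid and megakaryocyte factor gene Gata1 fell by 3.10 ± 0.45. Stem cell genes for efflux pumps and retinoid metabolism fell in 9 of 12 cases, with the dehydrogenase gene Aldh1a1 at 0.826 ± 0.525 RPKM in CLP and 47.8 ± 11.6 RPKM in HSC, and 4 of 5 kept imprinted genes fell, with Ndn at 1.26 ± 0.09 and 46.5 ± 13.8 RPKM. Under 1 RPKM in every CLP library were 4 of the 12 efflux and retinoid genes and 3 of 6 measured imprinted genes. Trim47, Tgm2 (a transglutaminase), Mmrn1 (multimerin of platelets) and Serpina3g, all outside the lists, and Gng11 of the megakaryocyte and platelet list were among the 15 largest falls, from -6.44 ± 0.26 for Trim47 to -5.92 ± 0.23 for Gng11.

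**Figure D2:**
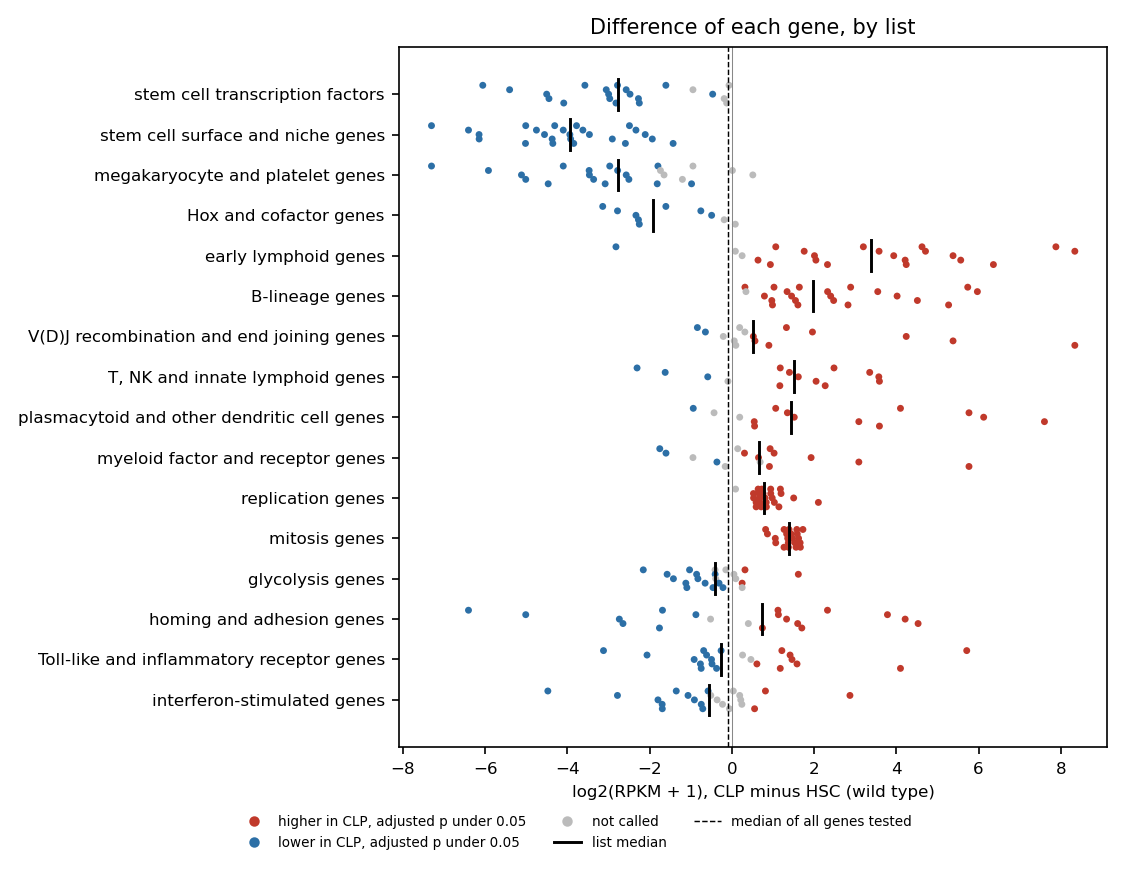
Each dot is a kept gene of a list, placed by its log2(RPKM + 1) difference, CLP minus HSC, with called genes coloured by direction, list medians as bars and the median of all 11285 genes (-0.099) as a dashed line. Stem cell, megakaryocyte and Hox lists lie to the left (medians -3.94 to -1.93), the lymphoid lists to the right, and the 21 mitosis genes form a tight group at a median of 1.39.

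Cell-division genes rose together. Of 24 replication genes 23 rose (median 0.78), and of 21 mitosis genes 21 rose (median 1.39), and none of either list fell. Mki67, the proliferation antigen, was at 48.1, 44.4 and 34.8 RPKM in CLP, against 19.4, 20.2 and 9.60 RPKM in HSC (1.37 ± 0.26, adjusted p = 0.000181). Rrm2, the ribonucleotide reductase subunit that limits DNA building blocks, averaged 135 ± 8 RPKM in CLP and 33.1 ± 14.5 RPKM in HSC (2.10 ± 0.26). HSC replicate 3 was the lowest HSC library for both, and without it 17 replication genes and 19 mitosis genes rose. The inhibitors of cyclin-dependent kinases went opposite ways. Cdkn1c, or p57, which holds stem cells at rest, was at 0.276, 0.087 and 0.355 RPKM in CLP, against 14.3, 14.1 and 27.3 RPKM in HSC (-3.92 ± 0.18). Cdkn1a, or p21, was at 57.5, 38.2 and 32.8 RPKM in CLP, against 1.78, 2.48 and 2.23 RPKM in HSC (3.76 ± 0.21). Among the D cyclins, which start the cycle, Ccnd3 rose by 0.78 ± 0.10, Ccnd1 fell by 0.90 ± 0.28, and Ccnd2 averaged 87.3 ± 10.7 RPKM in CLP and 85.8 ± 8.5 RPKM in HSC (0.02 ± 0.11, adjusted p = 0.871). The Ccnd1 call was lost without CLP replicate 1, its lowest library, in the 6 CLP and HSC or the 9 wild-type libraries alone, and with the replicate block on those 6. Over all 27 brake and G1 genes 12 rose and 10 fell.

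Glycolysis genes leaned lower in CLP, with 13 of 22 lower, 3 higher and a median of -0.41, and with 12 lower and 5 higher under median-ratio scaling. Only 1 was higher without CLP replicate 3, without HSC replicate 3, or in the 6 libraries alone with or without the replicate block. Aldoa, aldolase, averaged 114 ± 8 RPKM in CLP and 307 ± 42 RPKM in HSC (-1.42 ± 0.11), and the glucose carrier gene Slc2a3 8.21 ± 0.32 and 40.3 ± 6.6 RPKM (-2.15 ± 0.14). Gapdh did not pass the test, at 538 ± 36 RPKM in CLP and 504 ± 33 RPKM in HSC. Of 15 DNA methylation and Polycomb genes 8 rose and 1 fell. Ezh2, the Polycomb methyltransferase, averaged 55.3 ± 1.1 RPKM in CLP and 25 ± 6 RPKM in HSC, while Dnmt3a averaged 19.7 ± 2.0 and 17.9 ± 0.8 RPKM (0.13 ± 0.13, adjusted p = 0.393).

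Homing and adhesion genes changed in both directions, 10 higher and 7 lower of 19, where 19.6% of all genes were higher and 32.0% lower. The chemokine receptor genes Ccr7, Ccr9 and Cxcr4 rose by 4.53 ± 0.26, 2.33 ± 0.26 and 1.70 ± 0.27. Itgal, the LFA-1 chain of leukocytes, averaged 54.4 ± 3.4 RPKM in CLP and 3.15 ± 1.27 RPKM in HSC, while Itga6, a laminin receptor chain, averaged 3.50 ± 0.99 and 28.6 ± 3.0 RPKM.

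Innate sensing genes changed in both directions, as did genes at large (19.6% higher and 32.0% lower over all genes). Of 21 Toll-like and inflammatory receptor genes 8 rose and 11 fell. Under median-ratio scaling 10 rose and 8 fell, and under quantile normalization 9 rose and 9 fell. Tlr4, the endotoxin receptor, was at 0.878, 1.20 and 2.27 RPKM in CLP, against 8.87, 9.32 and 8.63 RPKM in HSC (-2.06 ± 0.18), opposite in direction to Tlr7. Ly86, a cofactor of the Toll-like protein Cd180, rose by 5.71 ± 0.29, and Irak3, a brake on Toll-like signals, fell by 3.12 ± 0.15. Interferon-stimulated genes were lower in 11 of 22 cases and higher in 3 (median -0.54), and under median-ratio scaling lower in 9 and higher in 4. Ifitm1 was at 15.9, 17.0 and 33.5 RPKM in CLP, against 319, 459 and 783 RPKM in HSC (-4.47 ± 0.25), and Ifitm3 at 120, 88.2 and 118 RPKM in CLP, against 616, 665 and 1010 RPKM in HSC (-2.78 ± 0.16); both encode membrane proteins that block virus entry. The interferon mediators Stat2, Irf7 and Irf9 were not called. Among 10 Bcl2 family genes, the survival gene Bcl2 rose by 0.96 ± 0.15 and its relative Bcl2l1 fell by 0.97 ± 0.17, 4 rose in all and 2 fell. Of 8 Gimap genes, GTPases of lymphocytes that lie together on chromosome 6, 3 rose and 1 fell: Gimap7 averaged 75.2 ± 9.7 RPKM in CLP and 4.21 ± 0.86 RPKM in HSC, and Gimap5 22.5 ± 2.9 and 55.3 ± 16.0 RPKM.

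The genes of the sorting marks are no findings, since the cells were chosen on those proteins, but they check the labels. Il7r averaged 91.3 ± 3.7 RPKM in CLP and 1.06 ± 0.85 RPKM in HSC, Flt3 366 ± 24 and 14.9 ± 1.9, Kit 39.9 ± 8.0 and 332 ± 54, Ly6a (Sca1) 26.4 ± 9.7 and 86.7 ± 47.5, and Slamf1 (CD150) 0.720 ± 0.667 and 22.6 ± 5.3 RPKM. All followed their gate. For CD38, which the HSC label gives as negative, Cd38 RNA was at 3.21, 4.47 and 7.47 RPKM in CLP, against 7.78, 6.88 and 10.5 RPKM in HSC. Cd48, a surface gene that the label does not mention and that stem cells are known to lack, was at 157, 152 and 182 RPKM in CLP, against 5.42, 5.25 and 3.46 RPKM in HSC.

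The wild-type MPP4 libraries placed these changes in time, on the log2 scale. The step from HSC to MPP4 and the step from MPP4 to CLP were compared in the same fit; where they differed (1373 genes, 12.2%), a change was early if the first step was the larger and late if the second was. Where both steps passed in 1 direction and did not differ, it was gradual. Of the 249 genes at least 4-fold higher in CLP, 125 were early, 78 gradual, 22 late and 24 not resolved. Of the 483 at least 4-fold lower, 218 were early, 179 gradual, 17 late and 69 not resolved. With 0 for the HSC level and 1 for the CLP level, MPP4 lay at a median of 0.70 for the higher genes and 0.71 for the lower genes. Of all 5831 called genes 1481 higher and 2534 lower were not resolved, so timing rests on the large changes.

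**Figure D3:**
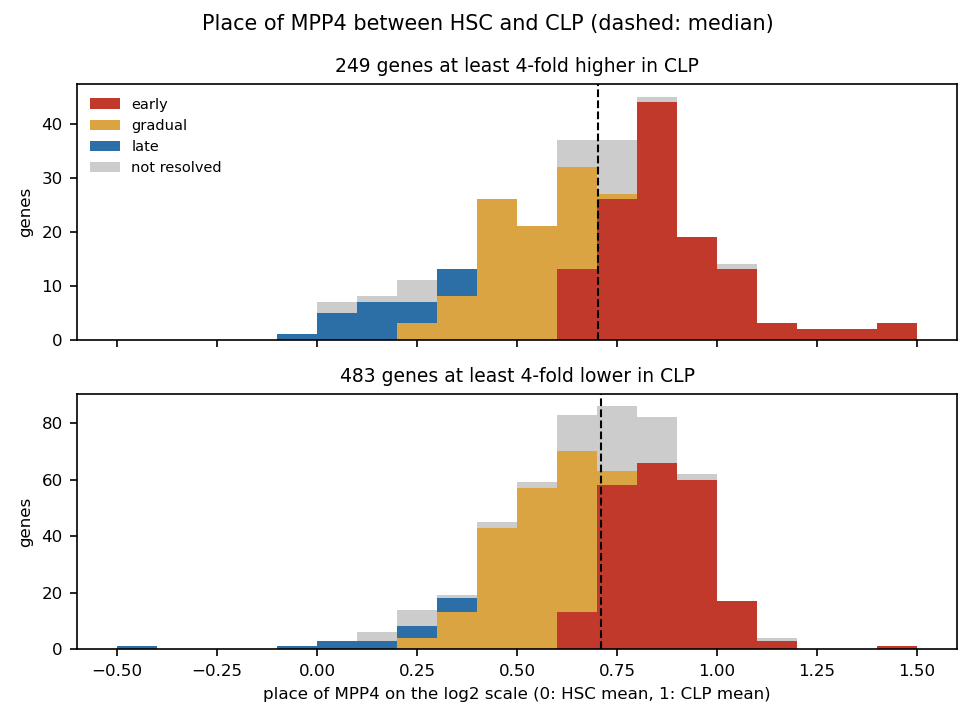
The horizontal axis is the place of MPP4 between the HSC mean (0) and the CLP mean (1) on the log2(RPKM + 1) scale, with values past the ends put in the last bars; the vertical axis counts the genes at least 4-fold higher (top, 249) or lower (bottom, 483) in CLP, coloured by class. Both histograms centre past the midpoint, with medians of 0.70 and 0.71.

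Within the rise, Dntt was early, with 847, 765 and 1055 RPKM in MPP4, as were Rag2, Satb1, Notch1, Lck and Irf8. On the log2 scale Cox6a2 was early too, at 25.5, 32.4 and 43.5 RPKM in MPP4, although most of its RPKM were gained after MPP4. The same held for Rag2, with means of 0.359, 17.2 and 54.5 RPKM in HSC, MPP4 and CLP. It held for Irf8 as well, with 2.24, 48.8 and 178 RPKM in the same order. Late genes were Ly6d, at 6.54, 24.8 and 32.5 RPKM in MPP4, and Siglech, Blk, Rag1, Cd79a, Ebf1, Vpreb1, Vpreb2, Igll1, Spib and Tmem119. Rag1 and Rag2 thus fell in different classes: MPP4 held 0.600, 1.86 and 3.05 RPKM of Rag1 and 11.7, 17.4 and 22.6 RPKM of Rag2. The late class of Rag1 was near the threshold (difference of steps 1.92 ± 0.61, limma adjusted p = 0.0458), as was that of Ebf1 (adjusted p = 0.0418). Mean Rag1 was 0.187, 1.84 and 21.4 RPKM in HSC, MPP4 and CLP. Its first step starts near 0, where the pseudocount of 1 understates a change. The same limit holds for Blk, with means of 0.274, 4.57 and 70.4 RPKM in HSC, MPP4 and CLP. It holds for Siglech too, with 0.204, 2.89 and 87.9 RPKM in the same order. At a pseudocount of 0.1 late rises were 47 (72 at 1). Across the B-lineage list 7 of the rises were late, 5 gradual (Blnk among them), 1 early and 8 not resolved. Il7r was gradual. Of the 249 large rises, 24 had a higher mean in MPP4 than in CLP. Among them, the step from MPP4 to CLP passed the test for Ctsg, at 68.0, 88.0 and 46.2 RPKM in MPP4 (-2.53 ± 0.50, adjusted p = 0.00144), and did not for Mpo (-0.98 ± 0.82, adjusted p = 0.519). All wild-type MPP4 libraries were nevertheless above all wild-type CLP libraries for Mpo. Its standard error takes in the spread of the mutant libraries, where Mpo in HSC averaged 31.9 RPKM with an SD of 58.1 RPKM.

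Within the fall, Esam, Tie1, Tek, Tcf15, Aldh1a1, Ndn, Hoxb5 and Cdkn1c were early. Tcf15 was already at 0.139, 0 and 0.232 RPKM in MPP4 and Tek at 0.931, 0.501 and 0.579 RPKM. Where a fall ends near 0 in CLP, the pseudocount of 1 understates the second step, which favours the early class. Tie1 averaged 84.9, 4.11 and 0.214 RPKM in HSC, MPP4 and CLP, so much of its relative fall came after MPP4. At a pseudocount of 0.1 early falls were 376 (565 at 1). Gata2, Mecom, Procr, Meis1 and Ifitm1 were gradual, a class that rests on a difference of steps that was not called. That of Meis1 was near the threshold (0.54 ± 0.19, limma adjusted p = 0.0624), with the first step the larger. Late falls were fewer. Hlf was at 24.0, 18.4 and 17.2 RPKM in MPP4, and Lmo2, an adaptor of stem cell factors, at 291, 246 and 254 RPKM in MPP4, with 60.8, 65.3 and 60.2 RPKM in CLP, against 351, 349 and 424 RPKM in HSC. Prtn3, the trafficking gene Rab38, the mucin gene Muc13 and Pcp4l1 were late as well; Pcp4l1 held 31.0, 21.4 and 22.7 RPKM in MPP4, within the range of HSC, and 1.11, 0.781 and 0.768 RPKM in CLP.

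**Figure D4:**
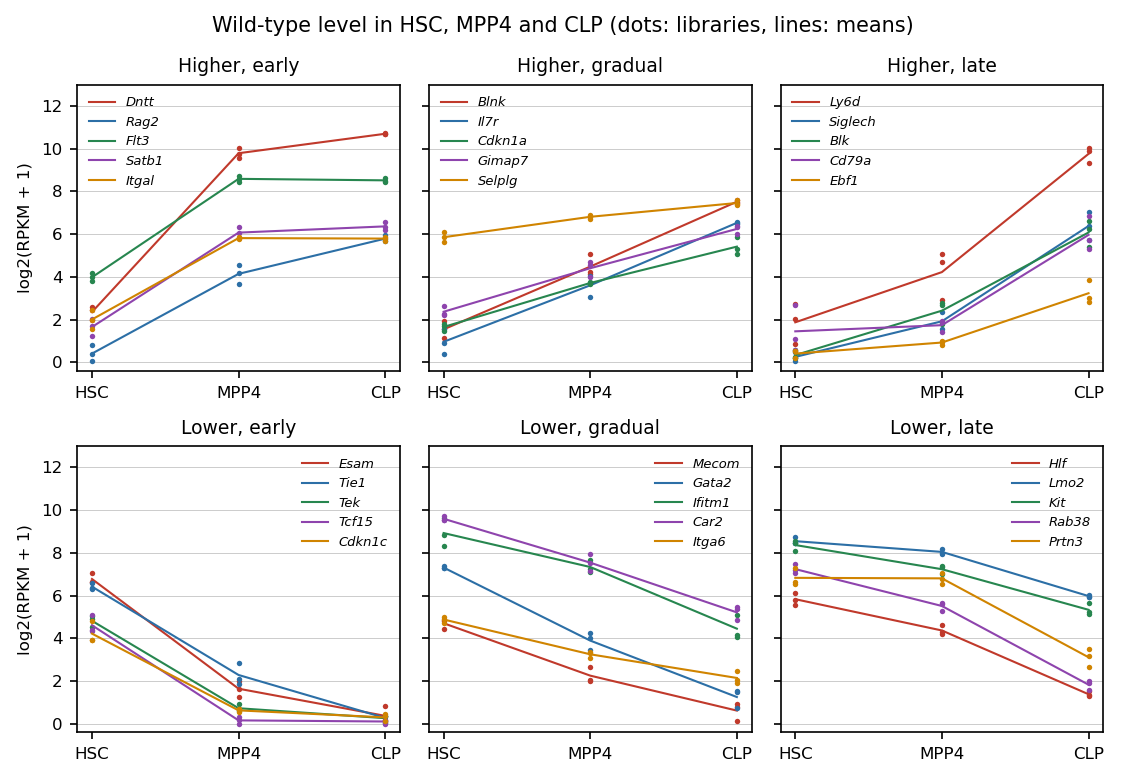
The horizontal axis gives wild-type HSC, MPP4 and CLP, the vertical axis log2(RPKM + 1), dots are libraries and lines join the means of 3, with 5 genes in each class and direction. In MPP4 Dntt is near its CLP level while Ly6d is nearer its HSC level, and Tcf15 is already near 0 in MPP4 while Lmo2 is nearer its HSC level.

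The same 2 populations of Etv6 mutant mice were separate samples, 4 of each. There, CLP minus HSC was called for 6547 genes (58.0%). Of the 732 genes at least 4-fold apart in wild type, 732 had the same direction in mutants and 731 were called in it. The mutant difference itself was set against the wild-type one for every gene, and 1 of 11285 (0.00886%) passed at an adjusted p under 0.05 (limma), with 408 at an unadjusted p under 0.05. That gene was Gmfg, a regulator of branched actin in blood cells, and its values are given with the additional observations.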

How the data were processed

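Values were deposited by the authors as RPKM in 1 table of 11628 genes and 21 libraries; all 21 columns matched a sample label. Per the labels' protocols, sorted cells were lysed and the polyadenylated part of their RNA was copied with SMART-seq v4, a method that does not mark strand, before NexteraXT tagmentation. STAR and the mm10 build are named per the submitters' processing notes; the tool that counted reads, the annotation, the strand setting and any further scaling were not given in the sources used here. The table holds no counts, so read depth is unknown, and intervals for counting error could not be given. Of the symbols, 16 had been turned into dates and were restored from their Entrez IDs, and 11619 IDs matched RefSeq (GRCm38).

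A model was fitted with limma 3.58.1 (R 4.3.3, trend) to log2(RPKM + 1) of all 21 libraries, with 1 mean for each of the 6 groups, 15 residual degrees of freedom and Benjamini-Hochberg adjustment over 11285 genes. The pseudocount of 1 understates changes of low genes. All p-values are two-sided. Figures used matplotlib 3.10.9.

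The labels give each wild-type number 1 age and sex in all populations, and the description counts 3 wild-type mice, so the number was read as the mouse. Over genes, libraries with the same number deviated from their group means with correlations of 0.0996 to 0.348, and those with other numbers with correlations of -0.259 to 0.0685. The main fit has no block, and the blocked fit is an alternative. That libraries are separate mice within a population rests on this reading.

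Members and gene lists were chosen with earlier results of these data known. Genes named are the 15 largest non-overlapping changes in each direction, the first 6 and the up to 3 largest called changes per direction of each list, the 5 largest of each class, the 5 most abundant called genes per direction and genes whose difference differed in mutants; some genes that this rule names are not reported here. Angpt1, Gapdh, Hbb-bs, Igll1, Ikzf1, Irf9, Lcn2, Lyl1, Ngp, Notch1, Prkdc, Rora, Runx1, Satb1, Stat2 and Vpreb1 were added after their values were seen. Alternatives were pseudocounts of 0.1 and 0.5, other filters, median-ratio scaling, quantile normalization, library weights, fewer libraries in the fit, the block, classes from the MPP4 place alone, and leaving out each library.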

Additional observations from a re-analysis of the deposited data

Results flagged for a closer look

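In Etv6 mutants and in wild type the CLP minus HSC difference of Gmfg was not the same, by a test of the difference itself (interaction 1.38 on the log2 scale, limma adjusted p = 0.0269). Gmfg stood at 125, 143, 157 and 133 RPKM in mutant CLP and 30.5, 29.3, 32.1 and 43.7 RPKM in mutant HSC, against 143, 112 and 146 RPKM in wild-type CLP and 80.3, 70.3 and 108 RPKM in wild-type HSC. The CLP values of the genotypes overlap, while all mutant HSC libraries lie below all wild-type HSC libraries. The number of genes with such a difference was 0 to 3 when single libraries were left out, so the call is not stable.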

How the results depend on the processing

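The counts of called genes and of large rises kept within 1.5 times of their value under the alternatives run. None of the 243 named genes kept in the fit changed direction where it was called in the main or the alternative fit. Changes of sign in genes called in neither were not counted. Large falls numbered 804 at a pseudocount of 0.1 (483 at 1). Timing classes moved most. At a pseudocount of 0.1 late rises were 47 (72 at 1) and early falls 376 (565 at 1). From the MPP4 place alone, without a test, rises were 1116 early, 908 gradual and 192 late, and falls 1432 early, 1870 gradual and 313 late. With the replicate number as a block, late falls were 111 (71 without it), and the genotype difference was called for 2 genes (1 without it); of the other counts, the block moved Gimap genes lower to 2 and plasma and mature B-cell genes lower to 1, and on the 6 libraries alone also MHC class II genes higher to 6, glycolysis genes higher to 1 and megakaryocyte genes higher to 1. Leaving out 1 library at a time gave 5250 to 5537 genes called, 1986 to 2144 higher and 3236 to 3393 lower, 239 to 258 large rises and 433 to 509 large falls. Early rises then ranged over 269 to 488, gradual rises over 162 to 227 and late rises over 36 to 69; early falls over 349 to 590, gradual falls over 317 to 443 and late falls over 37 to 78. Without MPP4 replicate 1 there were 290 early rises, 36 late rises and 37 late falls; without MPP4 replicate 2, 38 late rises; without MPP4 replicate 3, 269 early rises and 349 early falls. The genotype difference ranged over 0 to 3 genes. Named genes whose call was lost under at least 1 alternative were mostly small changes, among them B2m, Rpl13, Atp5b, H2-D1, Dnmt1, Hif1a, Isg15, Cd38 and Hoxa5; the cause was not tested. Depth is unknown, so low values near 0 RPKM were not given a limit of detection.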
